A study of Mus musculus with 15 samples.

Results

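Antibody messages were examined through 10 genes of the 46078 in the deposited count table. These were 7 heavy chain constant genes (Ighm, Ighd, Ighg1, Ighg2b, Ighg2c, Ighg3 and Igha), the light chain constant genes Igkc and Iglc2, and Jchain. They were chosen by symbol because reads for antibody chains were present in these same libraries, so their levels, folds and p-values describe these libraries and are not independent evidence. GENCODE M21 gives 13 immunoglobulin C genes in the table. The 4 that were not chosen (Ighe, Iglc1, Iglc3 and Iglc4) are reported beside the 10.

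The libraries came from the podocyte fraction of male C57BL/6J mice, that is, cells of the digested kidney cortex held on a magnetic column by rabbit antibodies against nephrin. Young mice were 4 months old and uninjected. Aged mice were 21 months old and received weekly intraperitoneal injections at 12 mg/kg for 8 weeks, either of the anti-PD-1 antibody RMP1-14 (aged aPD1ab, whose sample names give 47 days) or of the isotype control antibody 2A3 (aged IgG2a). Of 5 labelled mice per group, 5 young, 4 aged IgG2a and 4 aged aPD1ab columns could be tied to a group, but not to a single animal, and the numbers given here to libraries are only names. Every injected mouse was aged and every young mouse was uninjected, so age and injection cannot be told apart in any comparison with the young group. The words "with IgG2a" and "with aPD1ab" below name these aged groups and not an effect of the antibody. The assay counts mRNA and not antibody protein.

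Antibodies are made by B cells and, in far larger amounts, by the plasma cells that B cells become. Each antibody pairs a heavy chain with a kappa or lambda light chain. A naive B cell makes IgM and IgD heavy chains from one long transcript by alternative splicing, and IgD marks mature B cells that have not met antigen. Class switching then joins the same variable region to a downstream constant gene, which gives IgG, IgE or IgA. C57BL/6 mice carry Ighg2c where other strains carry Ighg2a. J chain links IgM and IgA into polymers, and plasma cells make it in quantity.

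The coding ends of the chains show where they join and are printed for that reason. The last 60 coding bases of each gene's shortest coding transcript are given 5′ to 3′ without the stop codon (GRCm38, GENCODE M21), and capitals mark a cysteine codon where it is the last codon or the one before it. In IgM and IgA this cysteine belongs to the tailpiece through which J chain is bound, and in the light chains it bonds to the heavy chain. Ighm lies at chr12:113420870-113420929, Igha at chr12:113258771-113258830, Ighg2b at chr12:113306392-113306451, Ighg2c at chr12:113287392-113287451 and Iglc2 at chr16:19198539-19198598, all on the minus strand, and Igkc at chr6:70726695-70726754 on the plus strand.
Ighm: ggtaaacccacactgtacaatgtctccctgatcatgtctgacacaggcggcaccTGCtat
Igha: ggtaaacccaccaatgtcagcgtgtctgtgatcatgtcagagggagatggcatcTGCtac
Ighg2b: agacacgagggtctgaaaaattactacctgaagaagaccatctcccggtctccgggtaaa
Ighg2c: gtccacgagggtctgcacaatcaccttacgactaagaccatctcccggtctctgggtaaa
Igkc: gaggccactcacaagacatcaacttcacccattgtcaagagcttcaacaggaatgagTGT
Iglc2: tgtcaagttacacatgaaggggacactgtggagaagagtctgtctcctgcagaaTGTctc
Ighm and Igha carry the cysteine codon in front of their last codon, and neither IgG gene has one in its last codons. Membrane and secreted forms of a heavy chain share a gene and were not separated by the counts.

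Libraries held between 19912969 and 32717100 counted reads. Aged IgG2a library 1 stood apart from the other aged IgG2a libraries on the first principal component of all genes, which carried 40.7% of the variance, at -16.4 against 71.6 to 84.2. Aged aPD1ab library 2 was at -64.9 on it, against -13.9 to 10.9 for the other aPD1ab libraries. Counts and calls without these libraries are given where a count moved by over 1.5 times or a named call was lost. Nphs1, which encodes nephrin, was at 43.2 to 81.3 CPM in young and 4.14 to 19.4 CPM in aged IgG2a libraries. CPM here are counts scaled to a common library size by TMM. In bulk RNA, fewer cells of a type and less RNA per cell cannot be told apart.

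Antibody messages rose strongly in the aged podocyte fraction. Reads on the 10 genes made up 0.0449% to 0.0837% of a young library, 0.475% to 0.813% of an aged IgG2a library and 0.0645% to 0.843% of an aged aPD1ab library. The lowest aged share was in aPD1ab library 2 (95% Wilson interval 0.0635% to 0.0655%, for counting error only), within the young range, and the other aPD1ab libraries began at 0.686%. In aged IgG2a against young mice, 8 of the 10 genes rose (adjusted p under 0.05 and over 2-fold, edgeR with Benjamini-Hochberg adjustment over all genes) and none fell, where 3.89% of the 15953 genes tested rose and 4.59% fell. The 2 that did not pass were Ighd and Ighg1. The median log2 fold change was 3.56 over the 10 genes and 0.038 over all genes tested. Without aged IgG2a library 1 the same 8 genes passed, against 8.16% of all genes, and without aged IgG2a library 3 the count was 5, against 1.14%, since Ighg2c, Ighg3 and Igha were lost.

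**Figure D1:**
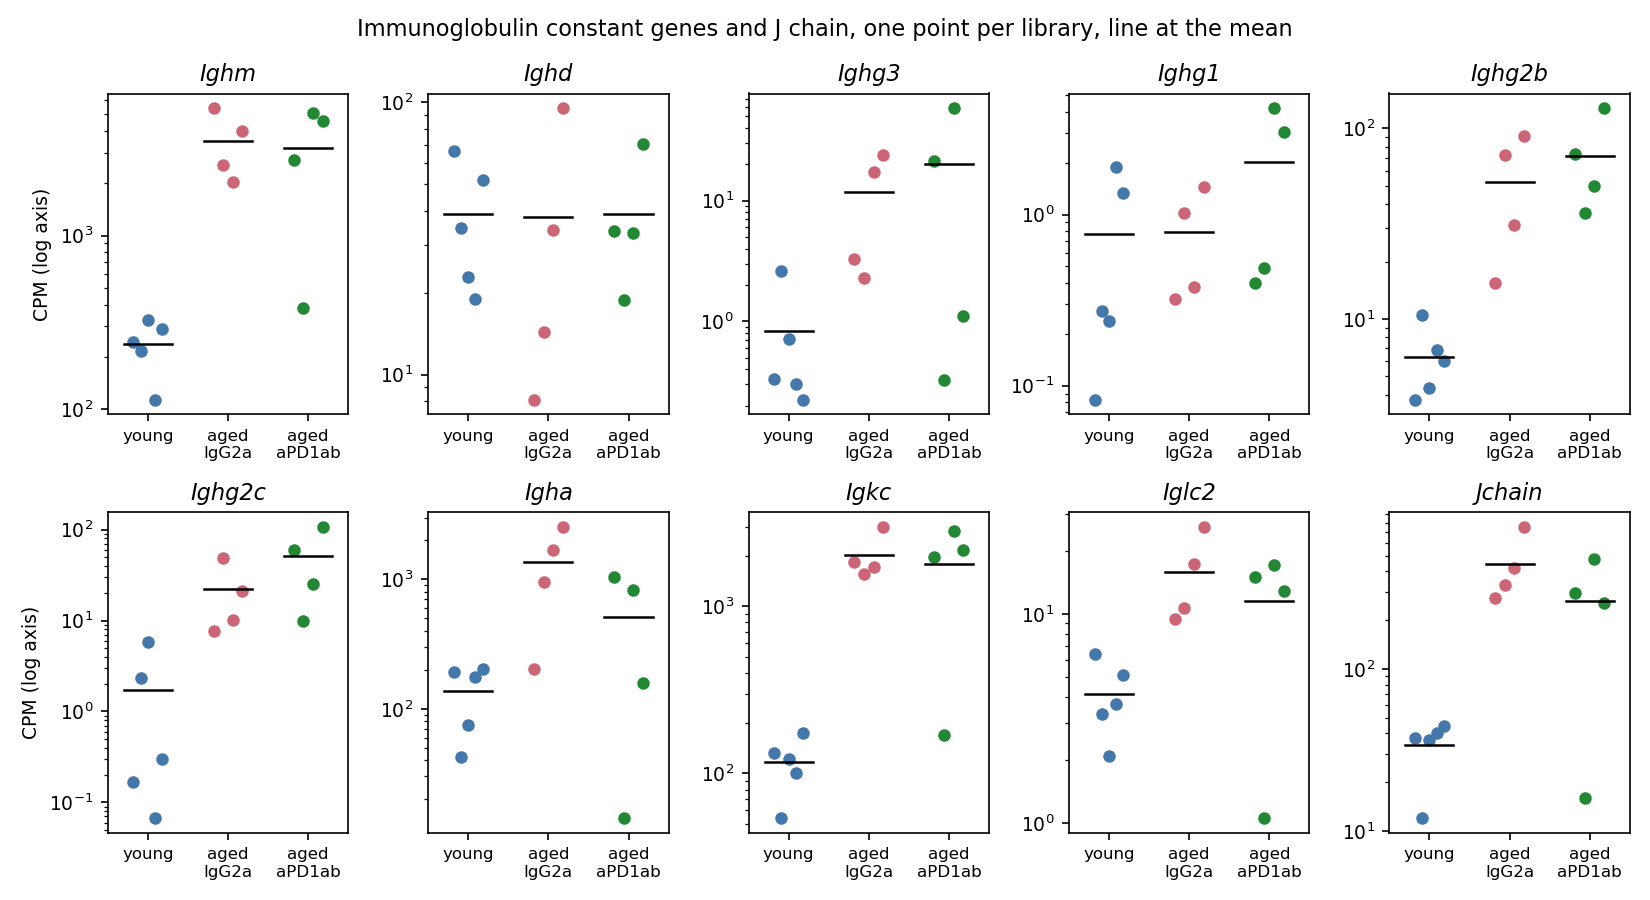
Level of each of the 10 genes in CPM (log axis, a scale of its own per gene), with a point per library and a line at the group mean, for 5 young, 4 aged IgG2a and 4 aged aPD1ab libraries. Ighm, Igkc and Jchain lie above the young libraries in every aged IgG2a library, and the 3 groups overlap for Ighd. The lowest aged aPD1ab point is library 2 for each of the 10 genes but Ighg1.

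Ighm (ENSMUSG00000076617, chromosome 12, 113418558 to 113422730, minus strand) encodes the IgM heavy chain, the first that a B cell makes. Its level was 245, 217, 325, 114 and 288 CPM in young libraries 1 to 5. It was 5418, 2535, 2047 and 3994 CPM in aged IgG2a libraries 1 to 4 and 2732, 382, 5086 and 4556 CPM in aged aPD1ab libraries 1 to 4. No aged library reached down to the young range, although aPD1ab library 2 stood only a little above it. The log2 fold change of aged IgG2a against young was 3.94 ± 0.38 (SE), which is 15.3-fold (edgeR adjusted p = 0.00144). It was 3.64 without aged IgG2a library 1.

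Ighd (ENSMUSG00000104213, chromosome 12, 113406604 to 113416324) encodes the IgD heavy chain and lies directly downstream of Ighm, its start 6.4 kb after that of Ighm. Young libraries had 66.2, 34.5, 22.8, 19.0 and 52.0 CPM of it. Aged IgG2a libraries had 8.09, 14.3, 34.0 and 95.3 CPM, and aged aPD1ab libraries 33.7, 18.8, 33.1 and 70.2 CPM. The groups overlapped throughout, and the aged IgG2a libraries alone spanned more than the young range at either end. Aged IgG2a against young gave a log2 fold change of 0.031 ± 0.66 (SE; edgeR adjusted p = 0.978), and its sign turned in 7 of 16 alternatives. Thus Ighm and Ighd differed, with IgM messages many-fold higher and IgD messages without a detectable change at this spread. Whether their reads came from a shared transcript was not tested.

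The ratio of Ighm to Ighd, each per kb of annotated exon, put this in 1 value per library. It was 3.73, 6.34, 14.3, 6.03 and 5.58 in young libraries. In aged IgG2a libraries it was 675.1, 179, 60.7 and 42.2, and in aged aPD1ab libraries 81.6, 20.4, 155 and 65.4. Every aged library, aPD1ab library 2 among them, lay above every young library. These ratios are a description, without a test. Divided instead by the length of the shortest coding transcript, the means were 3.84 in young, 127.5 in aged IgG2a and 42.98 in aged aPD1ab libraries, in the same order as with annotated exon (7.20, 239 and 80.6).

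**Figure D2:**
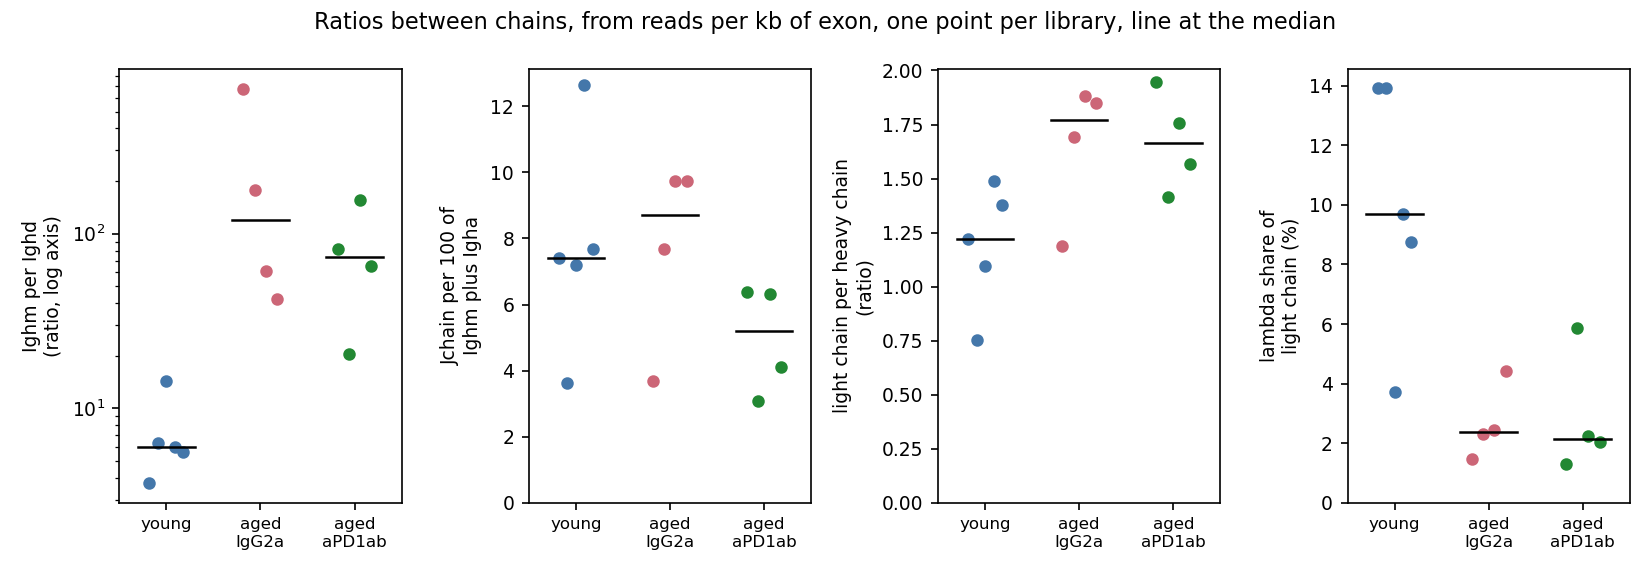
Ratios between antibody chains in each library, computed from reads per kb of annotated exon, with the line at the group median (young n = 5, aged IgG2a n = 4, aged aPD1ab n = 4). Ighm per Ighd (log axis) is 3.73 to 14.3 in young and 20.4 to 675.1 in aged libraries, without overlap. Jchain per 100 of Ighm plus Igha, light chain per heavy chain and the lambda share of light chain overlap between young and aged libraries on this scale, and light chain per heavy chain did not when reads were divided by the length of the shortest coding transcript.

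Of the IgG genes, Ighg2b (ENSMUSG00000076613, chromosome 12, 113302965 to 113307933) encodes an IgG class that fixes complement. It was at 3.77 to 10.4 CPM in young libraries (median 6.04), at 15.4, 72.1, 31.0 and 90.8 CPM with IgG2a and at 73.3, 36.1, 50.1 and 128 CPM with aPD1ab. Neither aged group overlapped the young group. With IgG2a it had a log2 fold change of 3.12 ± 0.51 (SE, edgeR adjusted p = 0.00878).

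Ighg2c (ENSMUSG00000076612, chromosome 12, 113285325 to 113288932) was uneven among young mice, at 0.166, 2.35, 5.75, 0.0671 and 0.298 CPM, the lowest from 2 reads. It was at 7.76, 49.2, 10.2 and 21.1 CPM in aged IgG2a libraries and at 59.6, 9.89, 25.4 and 108 CPM in aged aPD1ab libraries, above the young range in each. Its log2 fold change of 3.75 ± 1.02 (SE, edgeR adjusted p = 0.0352) passed in 8 of 16 alternatives. The call was lost without young library 1, 2, 4 or 5, without aged IgG2a library 2, 3 or 4, and with no filter on low counts. The adjusted p ranged from 0.00544 to 0.115 over the alternatives and the log2 fold change from 2.97 to 5.19.

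Ighg3 (ENSMUSG00000076615, chromosome 12, 113356224 to 113361232), an IgG class known for responses to carbohydrate antigens, was at 0.331, 2.59, 0.714, 0.302 and 0.224 CPM in young libraries. Aged IgG2a libraries had 3.28, 2.29, 17.2 and 23.9 CPM, and aged aPD1ab libraries 21.3, 0.326, 58.3 and 1.10 CPM. Young library 2 was above aged IgG2a library 2, so the groups overlapped. Aged IgG2a against young came to a log2 fold change of 3.81 ± 0.896 (SE, edgeR adjusted p = 0.0242), and the call was lost in 7 of 16 alternatives, with adjusted p up to 0.0713. These were the fit of all 3 groups and the fits without young library 1, 3, 4 or 5 or aged IgG2a library 3 or 4.

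Ighg1 (ENSMUSG00000076614, chromosome 12, 113325240 to 113330523) was scarce everywhere, with 2 to 57 reads in a young library, 7 to 25 with IgG2a and 10 to 108 with aPD1ab. The highest level in any library was 4.195 CPM, in aPD1ab library 3. Aged IgG2a against young gave a log2 fold change of 0.057 ± 0.83 (SE, edgeR adjusted p = 0.969). Ighe, the IgE heavy chain, had 10 reads in aged IgG2a library 4 and 32 in aged aPD1ab library 3. It had 0 in each other library, which allows up to 3 reads per library. The IgG coding sequences are alike: Ighg2b and Ighg2c share 85.7% of aligned bases with a longest identical run of 78 bases, and the other IgG pairs 74.1% to 76.3%. The split of reads among them is therefore uncertain to the extent that the counting divided or dropped shared reads.

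Igha (ENSMUSG00000095079, chromosome 12, 113254830 to 113260236) encodes the IgA heavy chain, the class of mucosal secretions, and is the last constant gene of the locus, 162.5 kb after Ighm. Young libraries had 192, 42.8, 75.2, 176 and 203 CPM of it. Aged IgG2a libraries had 204.5, 959, 1691 and 2562 CPM, and aged aPD1ab libraries 1040, 14.3, 834 and 158 CPM. Aged IgG2a library 1 was only just above the highest young library, while libraries 2 to 4 were far above it. In the aPD1ab group, library 2 was below every young library and library 4 within their range. The log2 fold change of aged IgG2a against young was 3.38 ± 0.69 (SE, edgeR adjusted p = 0.0171). It was 3.71 without aged IgG2a library 1 and missed the threshold without aged IgG2a library 3 (3.25, edgeR adjusted p = 0.0517).

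Igkc (ENSMUSG00000076609, chromosome 6, 70726435 to 70726966, plus strand), the kappa constant gene, had 133, 53.9, 123, 99.99 and 173 CPM in young libraries. It reached 1851, 1564, 1722 and 3000 CPM in aged IgG2a libraries, all far above the young range. With aPD1ab it was at 1980, 169, 2822 and 2161 CPM, and library 2 fell within the young range. This was a log2 fold change of 4.19 ± 0.36 (SE) for aged IgG2a against young, or 18.3-fold (edgeR adjusted p = 0.00075), which passed in 16 of 16 alternatives.

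Iglc2 (ENSMUSG00000076937, chromosome 16, 19198396 to 19200351), a lambda constant gene, changed less. It went from 2.10 to 6.42 CPM in young libraries (median 3.72) to 9.40, 10.6, 17.4 and 26.1 CPM with IgG2a, without overlap. That was a log2 fold change of 2.01 ± 0.37 (SE, edgeR adjusted p = 0.0128). With aPD1ab it was at 15.0, 1.06, 17.1 and 12.9 CPM, and library 2 was below all young libraries. Iglc2 and Iglc3 share 96.2% of aligned coding bases, with an identical run of 79 bases, so their reads may be mixed. Iglc2 also shares 38 exon bases with the joining segment Iglj2.

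Of the other lambda genes, Iglc1 was at 1.98 to 10.3 CPM in young and 15.2 to 87.9 CPM in aged IgG2a libraries (log2 fold change 2.81, edgeR adjusted p = 0.0198). Iglc3 was at 0.516 to 3.62 and 1.35 to 10.9 CPM (log2 fold change 1.12, edgeR adjusted p = 0.254). Iglc4 had at most 8 reads in a library. Lambda reads together made up 13.9%, 13.9%, 3.73%, 9.71% and 8.77% of light chain reads per kb in young libraries. They made up 1.47%, 2.30%, 2.45% and 4.43% in aged IgG2a and 1.29%, 5.87%, 2.24% and 2.03% in aged aPD1ab libraries. Young library 3 lay inside the aged range and the other young libraries above it. Reads of the antisense gene 2010309G21Rik, which shares 93 exon bases with Iglc3, cannot be told apart from it without a stated strand setting.

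Jchain (ENSMUSG00000067149, chromosome 5, 88519809 to 88527891, minus strand) followed the kappa gene. It was at 37.7, 12.0, 36.3, 40.2 and 44.3 CPM in young libraries. Aged IgG2a libraries had 273, 329, 421 and 755 CPM, all above the young range, and aged aPD1ab libraries 296, 16.1, 478 and 256 CPM, with library 2 inside it. The log2 fold change of aged IgG2a against young was 3.78 ± 0.42 (SE), or 13.7-fold (edgeR adjusted p = 0.00243), and 3.93 without aged IgG2a library 1. Set against the chains that it links, Jchain stood at 3.63 to 12.6 reads per kb for each 100 of Ighm plus Igha in young libraries, 3.67 to 9.75 with IgG2a and 3.07 to 6.39 with aPD1ab. These ranges overlapped among the 3 groups.

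**Figure D3:**
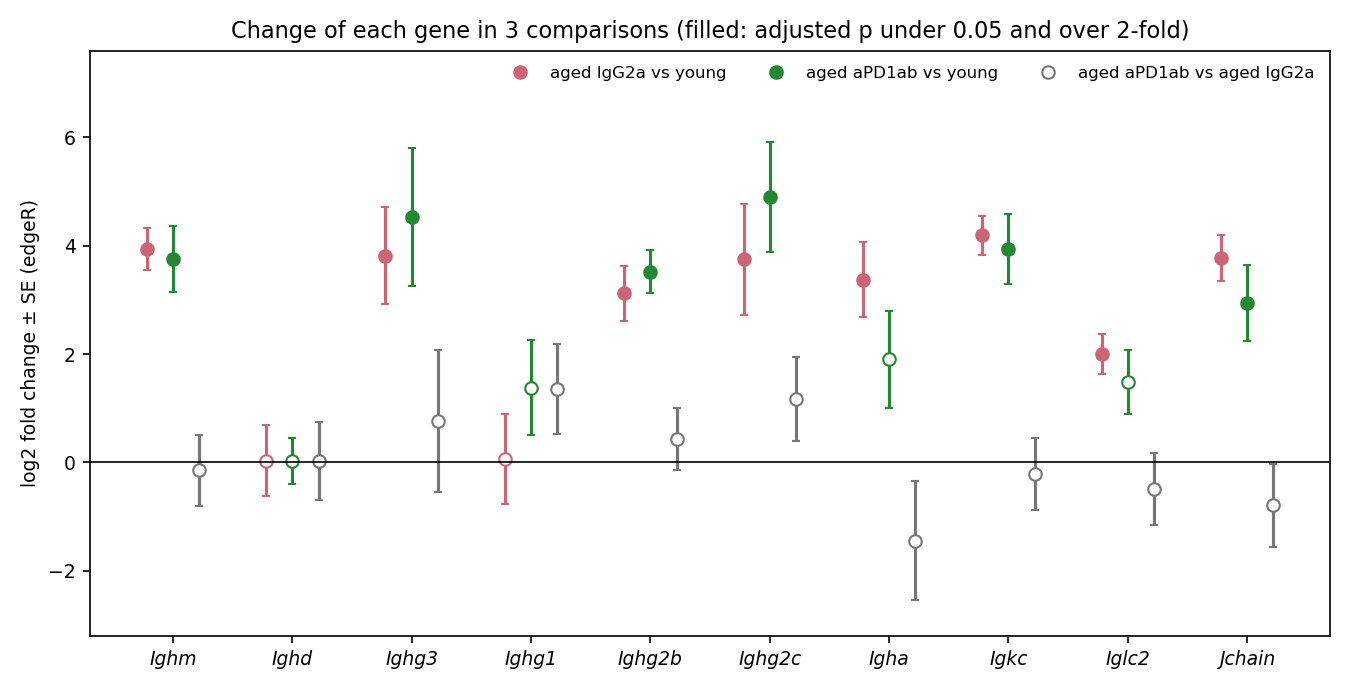
Log2 fold change with its SE (edgeR) of each of the 10 genes in aged IgG2a against young, aged aPD1ab against young and aged aPD1ab against aged IgG2a mice. Filled points passed an adjusted p under 0.05 and 2-fold: 8 genes in the first comparison, 6 in the second and 0 in the third. The first 2 comparisons share the young libraries.

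Ranges of CPM in aged IgG2a and young libraries did not overlap for 7 of the 10 genes. All were higher in the aged IgG2a libraries, where 4.75% of all genes tested were higher without overlap. The exceptions were Ighd, Ighg1 and Ighg3.

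In aged aPD1ab against young mice, 6 of the 10 genes rose and none fell, where 2.1% of the 15986 genes tested rose and 2.69% fell. The 6 were Ighm (3.75 ± 0.61, log2 fold change and SE), Ighg2b (3.52 ± 0.403), Ighg2c (4.90 ± 1.02), Ighg3 (4.53 ± 1.28), Igkc (3.95 ± 0.65) and Jchain (2.95 ± 0.70), with edgeR adjusted p between 0.00282 and 0.0298. Igha was at 1.90 ± 0.89 (SE, edgeR adjusted p = 0.150) and Iglc2 at 1.49 ± 0.585 (SE, edgeR adjusted p = 0.0935). Without aged aPD1ab library 2 the count was 8, against 2.35% of all genes tested, and Igha (2.31, edgeR adjusted p = 0.0235) and Iglc2 (1.87, edgeR adjusted p = 0.00399) joined. Ighd (0.021, edgeR adjusted p = 0.977) and Ighg1 (1.38, edgeR adjusted p = 0.283) did not pass with or without that library. Ranges did not overlap for 3 genes, Ighm, Ighg2b and Ighg2c, where 11.3% of all genes were higher without overlap. Ighg3 kept its call in 9 of 16 alternatives, losing it without young library 1, 3, 4 or 5, without aged aPD1ab library 3, with limma voom and with no filter on low counts (adjusted p up to 0.195).

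Whether blocking PD-1 moved these messages in aged mice was asked by aPD1ab against IgG2a. None of the 10 genes passed in either direction. In the edgeR fit of this pair 0% of the 15530 genes tested rose and 0% fell, although 4340 had an unadjusted p under 0.05. Fitted to all 3 groups at once, edgeR called 804 genes higher and 313 lower. DESeq2 called 748 genes higher and 357 lower in the libraries of the pair, and limma voom 1264 and 1059. None of these fits called any of the 10. Without aged IgG2a library 1, when edgeR called 8.46% of genes higher and 5.81% lower, again 0 of the 10 passed. Ranges overlapped for all 10 genes, where 7.24% of genes were higher and 4.73% lower without overlap.

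The estimates of aPD1ab against IgG2a were wide. The log2 fold change was -0.15 ± 0.66 (SE) for Ighm, 0.026 ± 0.71 for Ighd, -0.22 ± 0.66 for Igkc and -0.49 ± 0.66 for Iglc2. It was -1.44 ± 1.10 for Igha (edgeR adjusted p = 0.405), with means of 511 CPM for aPD1ab and 1354 CPM for IgG2a, and -0.80 ± 0.76 for Jchain (edgeR adjusted p = 0.511). None of the 10 passed in any of the 15 alternatives, but 5 of the 10 genes kept their sign in all of them. Igha (-2.55 to -0.90), Jchain (-1.26 to -0.39) and Iglc2 (-0.74 to -0.11) stayed negative, and Ighg1 (0.76 to 1.81) and Ighg2c (0.48 to 1.94) stayed positive. Among IgG genes it was 1.17 ± 0.78 for Ighg2c (edgeR adjusted p = 0.341), 1.36 ± 0.835 for Ighg1, 0.77 ± 1.31 for Ighg3 and 0.43 ± 0.57 for Ighg2b. Without aged aPD1ab library 2, Ighm was at 0.22 ± 0.42 and Igkc at 0.17 ± 0.32, so with that library left out the sign of both turned. For all 10 genes a change of at least 2-fold in 1 direction lay within 2 SE of the estimate, so these values do not show that the groups were alike.

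Per kb of annotated exon, Igkc was the most abundant of the 10 in each group, followed by Ighm and then Igha. Means were 219 ± 82.6 (SD, n = 5) CPM per kb for Igkc, 126 ± 42.8 for Ighm and 51.7 ± 27.5 for Igha in young libraries. In aged IgG2a libraries they were 3824 ± 1230 (SD, n = 4), 1855 ± 808 and 507.5 ± 378. In aged aPD1ab libraries they were 3352 ± 2134 (SD, n = 4), 1691 ± 1127 and 192 ± 188. In the young and aPD1ab groups each neighbour in the order of the 10 genes overlapped the next. In the aged IgG2a group there were gaps between Igkc and Ighm, Ighm and Igha, Jchain and Iglc2, and Ighg3 and Ighg1. Ighd was the fourth most abundant gene in young, the sixth in aged IgG2a and the seventh in aged aPD1ab libraries, while Ighg1 was the lowest in each. Per kb of the shortest coding transcript the first 3 places and the last were held by the same genes, and Ighd was the fourth, the fifth and the sixth.

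The heavy chain makeup gives each constant gene as a share of the 7, from reads per kb of annotated exon, and is described without a test. Ighm made up 54.5%, 73.7%, 78.7%, 43.1% and 58.9% in young libraries. It made up 96.8%, 75.7%, 61.6% and 66.4% in aged IgG2a and 74.8%, 84.7%, 87.3% and 91.4% in aged aPD1ab libraries. On this scale IgM was the largest class in all libraries but young library 4, where IgA was. Divided by the length of the shortest coding transcript, IgA was also the largest in young library 1 (41.05% against 38.6% for Ighm) and in aged IgG2a library 3 (51.2% against 45.65%).

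IgA was the second class in most libraries. Igha made up 30.2%, 10.3%, 12.9%, 47.3% and 29.3% in young libraries. With IgG2a it made up 2.58%, 20.2%, 35.9% and 30.1%, and with aPD1ab 20.1%, 2.24%, 10.1% and 2.24%. The ranges overlapped among all 3 groups.

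The IgD share was the class that separated young from aged libraries. A lower share was not a lower level of Ighd. Its mean was 38.92 CPM in young, 37.92 CPM in aged IgG2a and 38.95 CPM in aged aPD1ab libraries. Ighd made up 14.6%, 11.6%, 5.50%, 7.15% and 10.6% of young heavy chain. It made up 0.143%, 0.424%, 1.01% and 1.57% with IgG2a and 0.916%, 4.15%, 0.563% and 1.40% with aPD1ab, so every aged library was below every young library. The 4 IgG genes together made up 0.712% to 4.36% in young, 0.439% to 3.68% in aged IgG2a and 2.03% to 8.90% in aged aPD1ab libraries. The aPD1ab mean was 5.02% ± 2.87 (SD, n = 4) against 1.87% ± 1.35 (SD, n = 4) with IgG2a, and the ranges overlapped. Within IgG, Ighg2b and Ighg2c together made up 60.4% to 98.8%, and Ighg3 reached 37.05% of IgG in aPD1ab library 3 and 0.333% in aPD1ab library 4.

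**Figure D4:**
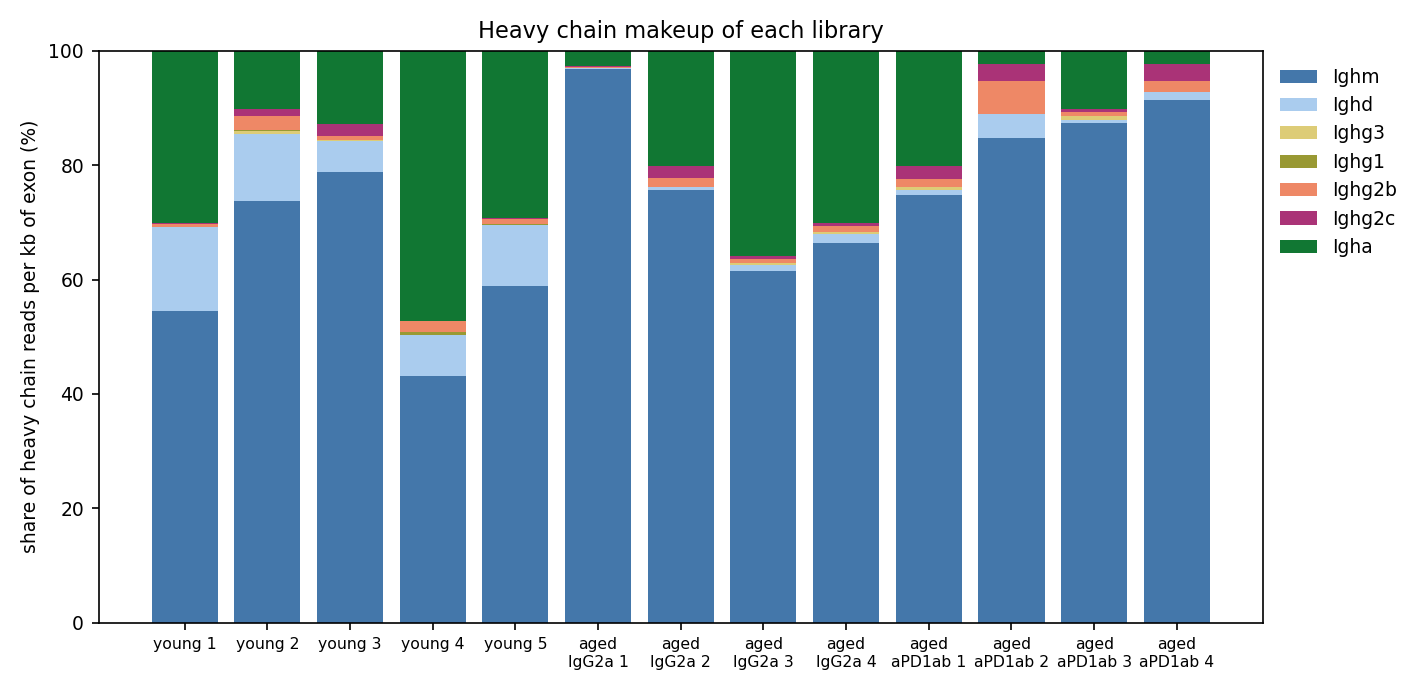
Share of each of the 7 heavy chain constant genes in the heavy chain reads per kb of annotated exon (bars add up to 100%), for each of the 13 libraries. Ighm is the largest share except in young library 4, Ighd is 5.50% to 14.6% in young and 0.143% to 4.15% in aged libraries, and Igha runs from 2.24% to 47.3%.

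Whether light or heavy chain messages were more abundant depended on the length that reads were divided by. Per kb of annotated exon, the ratio of Igkc plus all lambda genes to the 7 heavy chain genes was 1.22, 0.754, 1.095, 1.49 and 1.38 in young, 1.19, 1.69, 1.88 and 1.85 in aged IgG2a and 1.95, 1.41, 1.76 and 1.57 in aged aPD1ab libraries. On that scale young library 2 alone had less light than heavy chain, and the young and aged ranges overlapped. Per kb of the shortest coding transcript the ratio was 0.495 to 0.800 in young, 0.919 to 1.13 in aged IgG2a and 1.01 to 1.28 in aged aPD1ab libraries, so all 5 young libraries and aged IgG2a library 1 were below 1 and the young libraries did not overlap the aged ones. On both scales the mean was lower in young libraries, at 1.19 ± 0.285 (SD, n = 5) per kb of annotated exon. For the aged IgG2a group it was 1.65 ± 0.32, and for the aged aPD1ab group 1.67 ± 0.231 (SD, n = 4 each).

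Plasma cell and B cell markers were counted beside the chains, without a test of one list against the other. Among all genes tested, 3.89% rose and 4.59% fell in aged IgG2a against young mice. In aged aPD1ab against young mice the shares were 2.1% and 2.69%. Of 15 plasma cell markers tested, 5 rose in aged IgG2a against young mice and none fell, with a median log2 fold change of 0.81, and Jchain is one of the 5. Mzb1, an endoplasmic reticulum protein that helps antibody assembly, went from 1.27 to 3.27 CPM in young to 7.52 to 19.6 CPM in aged IgG2a libraries (log2 fold change 2.37, edgeR adjusted p = 0.00536). Derl3, which acts in the degradation of misfolded secretory proteins, rose by a log2 value of 2.10 (edgeR adjusted p = 0.00345). Prdm1, the transcription factor Blimp-1 that drives plasma cell differentiation and is also expressed by other leukocytes, rose by 1.05 (edgeR adjusted p = 0.00676). Xbp1, the factor of the secretory program, was at 0.20 (edgeR adjusted p = 0.185). Of the 15 genes, 3 rose with aPD1ab against young mice, namely Jchain, Mzb1 (2.20) and Derl3 (1.84). Prdm1 was at 0.042 there (edgeR adjusted p = 0.911).

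Of 15 B cell markers tested, 1 rose and none fell with IgG2a, where 3.89% of all genes rose and 4.59% fell. The median log2 fold change was 0.16. With aPD1ab against young mice none passed (median -0.018), where 2.1% of all genes rose and 2.69% fell. The 1 was Cd72 (log2 fold change 1.27, edgeR adjusted p = 0.0435), a surface protein that restrains B cell signaling. Cd79a, a signaling chain of the B cell receptor, changed by 0.28 (edgeR adjusted p = 0.728) and Cd22 by 0.59 (edgeR adjusted p = 0.408). The summed B cell list was 167 to 428 CPM in young, 180 to 757 CPM in aged IgG2a and 145 to 395.5 CPM in aged aPD1ab libraries, overlapping throughout. The summed plasma cell list was 338 to 429, 761 to 1278 and 368 to 937 CPM, and the aged IgG2a libraries did not overlap the young ones. Jchain is part of that sum. Over the other 14 genes the sum was 325.5 to 385 CPM in young, 455 to 522 CPM in aged IgG2a and 352 to 507 CPM in aged aPD1ab libraries, a smaller difference, still without overlap between the IgG2a and young groups.

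**Figure D5:**
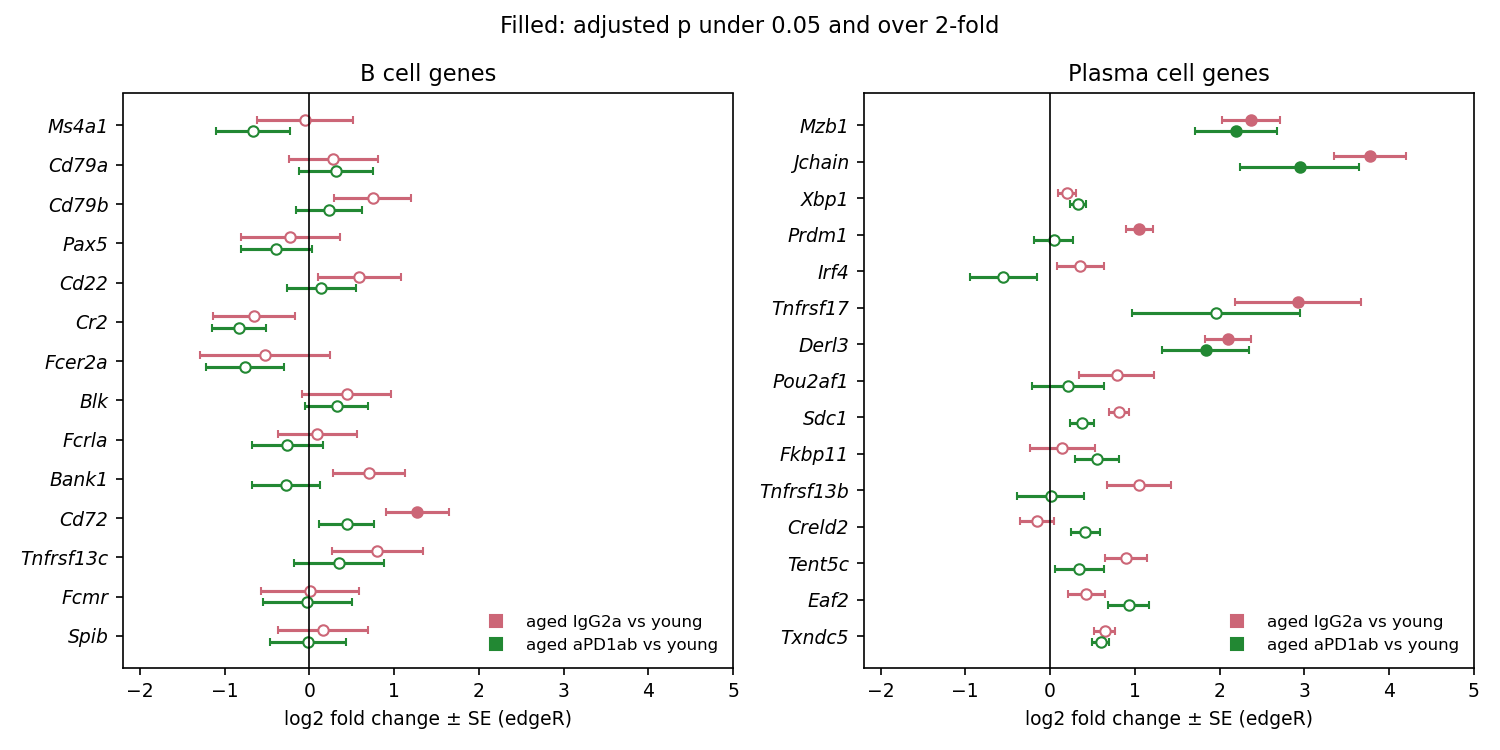
Log2 fold change with its SE (edgeR) of 14 of the 15 B cell markers (left) and 15 plasma cell markers (right) in aged IgG2a against young and aged aPD1ab against young mice. Filled points passed an adjusted p under 0.05 and 2-fold. On the left 1 gene passed with IgG2a (Cd72) and 0 with aPD1ab, and on the right 5 and 3.

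B cell receptor signaling genes, many of which other leukocytes share, gave 1 of 15 higher in aged IgG2a against young mice (Vav1, 1.09, edgeR adjusted p = 0.0374). Their median was 0.80, and 3.89% of all genes tested rose and 4.59% fell in that comparison. Without aged IgG2a library 1 the count was 8 of 15, against 8.16% of all genes tested. In aPD1ab against IgG2a without that library 8 of 15 were lower, against 5.81% of all genes tested. Of germinal center and class switching genes, 1 of 11 tested rose (S1pr2, a sphingosine phosphate receptor, by 1.41) and 1 fell (Gcsam, a germinal center gene, at -2.13, edgeR adjusted p = 0.0209). When aged IgG2a library 1 was left out, 4 of the 11 rose and 1 fell, where 8.16% of the 16216 genes tested rose and 1447 genes fell. Rag1 and Rag2, which rearrange antibody genes in precursors, had no read in any library. Of the surrogate light chain and pre-B list, 0 of 3 tested genes passed in any comparison. In aPD1ab against IgG2a 0% of all genes tested passed.

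Of genes for B cell survival and homing, 4 of 12 tested rose with IgG2a against young mice, where 3.89% of all genes rose. Cxcl13, the chemokine that draws B cells into follicles, was at 0.805 to 3.33 CPM in young, 3.18 to 23.0 CPM in aged IgG2a and 6.80 to 23.8 CPM in aged aPD1ab libraries. Against young mice its log2 fold change was 3.11 in the IgG2a group (edgeR adjusted p = 0.0145), and for the aPD1ab group the value was 3.42 (edgeR adjusted p = 0.00374). Tnfrsf17, the plasma cell survival receptor BCMA, rose by 2.92 (edgeR adjusted p = 0.0297) from 0 to 0.366 CPM to 0.820 to 1.35 CPM. Its ligand Tnfsf13, known as APRIL, rose by 1.48 and Cxcr4, the receptor that holds plasma cells in marrow, by 1.38. With aPD1ab, only Cxcl13 of the 13 tested passed against young mice, where 2.1% of all genes rose and 2.69% fell. Without aPD1ab library 2 the interleukin gene Il6 also passed, against 2.35% of all genes higher. Of immunoglobulin transport and receptor genes, 2 of 10 rose with IgG2a, Pigr (1.09) and Fcgr3 (1.21). With aged IgG2a library 1 left out, 4 rose and 1 fell, against 8.16% of all genes higher and 1447 of 16216 lower. Pigr was then at 0.68 (edgeR adjusted p = 0.0074), under 2-fold. Pigr carries polymeric IgA and IgM across epithelia and also passed with aPD1ab (1.21, edgeR adjusted p = 0.00376). In aPD1ab against IgG2a no gene of these lists passed, where 0% of all 15530 genes tested rose and 0% fell. The lists could thus not stand out in that fit. Without aged IgG2a library 1, 8.46% of all genes tested were higher in that comparison and 5.81% lower. Of plasma cell markers 1 was then higher and 2 were lower, and of transport and receptor genes 1 was higher and 4 were lower. Lower too were 3 germinal center and 2 survival and homing genes.

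Markers of other cells moved with the same groups. Among all genes tested, 3.89% rose and 4.59% fell with IgG2a against young mice, and 2.1% and 2.69% with aPD1ab. Of 10 macrophage markers, 9 rose in aged IgG2a against young mice, and their sum was 2065 to 3756 CPM in young, 3300 to 9705 in aged IgG2a and 2435 to 5658 in aged aPD1ab libraries. Of 10 T cell markers 3 rose in each aged group against young, with sums of 13.8 to 27.0, 21.6 to 60.5 and 19.1 to 33.3 CPM. The IgG2a count was 8 of 10 without aged IgG2a library 1, against 8.16% of all genes. Without aged aPD1ab library 2 the aPD1ab count was 3, against 2.35% of all genes. Of 10 proximal tubule markers all 10 fell with IgG2a (12762 to 19320 CPM in young, 1748 to 9457 with IgG2a and 9631 to 27648 with aPD1ab), and of 10 podocyte markers 7 fell and 1 rose (886 to 1435, 535 to 730 and 276 to 874 CPM). No endothelial marker of 10 and none of 6 erythroid markers tested passed with IgG2a, with sums of 807 to 1176, 639 to 743 and 400 to 1016 CPM for endothelial and 75.2 to 265, 143 to 305 and 123 to 160 CPM for erythroid genes. Aged IgG2a library 1, with the highest Ighm, had the lowest macrophage sum (3300 CPM) and the highest proximal tubule sum (9457 CPM) of its group. It also had the lowest B cell sum (180 CPM) and Ighd level (8.09 CPM) of that group. Its plasma cell sum (761 CPM) was the lowest too, but that sum holds Jchain, which was lowest there (273 CPM). With Jchain left out, the plasma cell sum of this library was not the lowest of its group. Aged aPD1ab library 2 was the lowest of its group for each of the 10 antibody genes but Ighg1. That library had the lowest sums of B cell (145 CPM), plasma cell (368 CPM) and podocyte (276 CPM) markers of its group. Its proximal tubule sum was the highest of the group (27648 CPM). With aPD1ab against young mice, 2 podocyte markers and 1 endothelial marker fell and no macrophage, proximal tubule or erythroid marker passed. Without aPD1ab library 2, 1 macrophage marker rose and 1 proximal tubule marker fell, where 2.35% of 16288 genes rose and 461 fell. No endothelial marker passed there. In aPD1ab against IgG2a no marker of these other cells passed, where 0% of all 15530 genes tested rose and 0% fell. That result therefore says nothing particular to these markers. With aged IgG2a library 1 left out, however, all 10 proximal tubule and 4 podocyte markers were higher with aPD1ab, against 8.46% of all genes. Lower were 9 macrophage, 3 T cell and 1 podocyte markers, against 5.81% of all genes. Leaving out that library also gave 1 endothelial marker that fell in IgG2a against young mice, where 1447 of 16216 genes fell. The part of these other cells in the antibody results was not tested.

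The patterns most like those of the chains were sought among all genes outside the immunoglobulin families, by Pearson's r of log2 CPM over the 13 libraries. For Ighm these were Prg2 (0.97), Mzb1 (0.97), Slpi (0.95), Gpr55 (0.94) and Derl3 (0.93). For Igkc they were Prg2 (0.97), Jchain (0.97), Slpi (0.96), Mzb1 (0.96) and Derl3 (0.93), and for Jchain Prg2 (0.93), Derl3 (0.93), Bhlhe41 (0.93), Mzb1 (0.92) and Trp53rka (0.92). The libraries fall into young and aged groups and share the low aPD1ab library 2, so these values rank likeness only. Over the 8 aged libraries alone, r was 0.94 for Ighm with Mzb1, 0.97 for Igkc with Prg2 and 0.84 for Jchain with Trp53rka.

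Prg2, which encodes the major basic protein of eosinophil granules, was at 0 to 0.166 CPM in young, 5.15 to 6.91 CPM in aged IgG2a and 0.0814 to 8.001 CPM in aged aPD1ab libraries. Its log2 fold change with IgG2a was 6.14 (edgeR adjusted p = 0.000294). Slpi, a secreted inhibitor of leukocyte proteases, was at 0.336 to 0.953 CPM in young, 7.03 to 10.7 in aged IgG2a and 3.42 to 11.9 CPM in aged aPD1ab libraries (3.65 with IgG2a, edgeR adjusted p = 0.000619). Bhlhe41, a transcription repressor, rose by 1.63 with IgG2a (edgeR adjusted p = 0.0087) and Gpr55, a lipid receptor, by 3.26 (edgeR adjusted p = 0.0184). Between aPD1ab and IgG2a none of these passed, and their log2 fold changes ran from -0.61 for Bhlhe41 to -0.10 for Slpi.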

How the data were processed

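The authors sequenced podocyte fractions of young mice and of aged mice given IgG2a or aPD1ab, and deposited raw counts of reads per Ensembl gene. The submitters' processing notes name HISAT2, featureCounts and the mm10 (GRCm38) genome. Versions, the strand setting and the treatment of shared reads are not given in the sources used here. The study numbers its mice in a plot of the podocyte fraction, which tied 13 columns to a group, and 2 columns were not used. Symbols, positions and exon lengths are from GENCODE M21. The members and gene lists were chosen with earlier results of these data known.

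Each pair of groups was fitted in R 4.3.3 with edgeR 4.0.16 (robust quasi-likelihood test, TMM, filterByExpr), with Benjamini-Hochberg adjustment over all genes tested and calls at an adjusted p under 0.05 and over 2-fold. The fit was tested on simulated counts with the same dispersion for all genes and no library standing apart. It therefore does not show how the fit behaves at the spread seen here. Libraries are separate mice by the labels. Makeup used counts divided by annotated exon length. Likeness was computed on log2 CPM (prior count 2). The text names all members, the other constant genes, up to 4 called and 4 most abundant genes of each list, and the 5 genes most like Ighm, Igkc and Jchain. Tnfrsf17 and Tnfsf13 come from the survival list, and Nphs1, Rag1 and Rag2 are named as defining genes, chosen after their values were seen. Alternatives were DESeq2 1.42.0 and its size factors, TMM without immunoglobulin genes, limma 3.58.1 voom with quality weights, no filter, a fit of all 3 groups, adjusted p alone, each library left out, plain read shares and, added after seeing the data, the length of the shortest coding transcript. Adjusted p alone reuses the main fit, so a gene called there passes it by construction and no sign can turn in it. It is counted among the alternatives. Depth was 19912969 to 32717100 reads. Intervals and floors (3 counts) cover counting error only. Some single genes of the lists are not reported here.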

Additional observations from a re-analysis of the deposited data

Results flagged for a closer look

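Of 84 sets of 4 or 5 libraries (each gene or share within a group), 5 had a library far from the others by Dixon's criterion, where chance gives about 1 in 20. Ighg3 in young library 2 was at 2.59 CPM, above the other young libraries. Jchain in young library 2 was at 12.0 CPM, below the other young libraries. The Ighg2c share of heavy chain was 2.09% in aged IgG2a library 2, above the others of its group. The Ighg3 share of heavy chain was 0.661% in young library 2, above the other young libraries. The ratio of Ighm to Ighd was 14.3 in young library 3, above the other young libraries.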

How the results depend on the processing

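The count of genes called in aged IgG2a against young was 8 and ranged from 5 to 8 with a library left out, and was 7 or 8 in the other alternatives. In aPD1ab against young it was 6, from 5 to 8 with a library left out, and 4 with no filter, 5 with limma voom and 7 with DESeq2. In aPD1ab against IgG2a it was 0 in all 15 alternatives. Of the log2 fold changes of members, 411 values under an alternative kept direction and side of the threshold, 24 no longer passed, 3 newly passed and 30 changed sign, in each case for a gene that was not called. Signs turned for Ighd in IgG2a against young (-0.42 with limma voom, -0.035 with no filter, -0.047 with all 3 groups, and -1.01 to 0.34 with a library left out) and for Ighg1 (-0.013 with all 3 groups, and -0.38 to 0.33 with a library left out). In aPD1ab against IgG2a they turned for Ighm (0.23 with limma voom, and -0.47 to 0.22 with a library left out), Ighd (-0.004 with DESeq2, and -0.43 to 1.06 with a library left out), Ighg3 (-1.42 with limma voom, and -0.65 to 1.42 with a library left out), Ighg2b (-0.003 to 0.86 with a library left out) and Igkc (-0.52 to 0.17 with a library left out). In aPD1ab against young they turned for Ighd (-0.44 to 0.30 with a library left out). The cause was not tested. Of the makeup values, 328 moved by less than 1 SD and 14 by more. Divided by the shortest coding transcript these were the Ighm share with aPD1ab (76.1%), the Ighd share in young (13.9%), the Ighg1 share with aPD1ab (0.0797%), the Iglc2 share of Igkc plus Iglc2 with IgG2a (0.882%) and aPD1ab (0.744%), the Ighg2b share of IgG with IgG2a (58.2%), and the light to heavy ratio in young, IgG2a and aPD1ab libraries (0.703, 1.07 and 1.18). On plain reads they were the Iglc2 share with aPD1ab (0.641%), the Ighg2b share of IgG with IgG2a (58.55%) and the light to heavy ratio (0.297, 0.423 and 0.451). No paired analysis was possible because the columns carry no replicate number shared between groups. Depth limits Ighg1, Ighg2c and Ighg3, which had as few as 2, 2 and 6 reads in a young library.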
